A study of Saccharomyces cerevisiae with 4 samples.

Results

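The chaperones and the protease of the mitochondrial matrix were followed through their mRNAs in G2/M-arrested Saccharomyces cerevisiae cells with and without the RNA polymerase inhibitor thiolutin. The genes were chosen by name and role: SSC1, ECM10, MDJ1, MGE1, HSP60, HSP10, HSP78 and PIM1. All 8 were found, among 7071 genes in each of the 4 deposited tables, and all 8 passed the filter on low counts. The strain, CB67, is labelled wild type and is of W303 origin. All samples grew in YEPD at 30°C and were arrested in G2/M with benomyl (80 µg/ml, 90 min), which disrupts microtubules. The 2 DMSO samples, replicates a and b, are the controls, and the other 2 samples, also replicates a and b, were given thiolutin (20 µg/ml, 30 min). All 4 thus carry benomyl, and the values compare thiolutin with DMSO in arrested cells only. RNA of S. pombe cells, added as whole cells, was present in every library as a spike-in.

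Nearly all mitochondrial proteins are encoded in the nucleus and enter mitochondria unfolded. Ssc1, the Hsp70 of the matrix, pulls them in and helps them to fold, together with its J-domain partner Mdj1 and its nucleotide exchange factor Mge1. The ring-shaped chaperonin Hsp60, closed by the lid Hsp10, encloses proteins while they fold. Hsp78, a relative of the cytosolic Hsp104, resolubilizes aggregated proteins, and Pim1, the Lon protease, degrades damaged ones. Several of these genes are known in yeast as targets of the heat shock factor Hsf1, which binds repeated units of GAA and its inverse TTC. Msn2 and Msn4, factors of the general stress response, bind AGGGG.

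These letters were searched in the 500 bases before the start codon of each gene in the R64 assembly, as the sites of the factors named above. Since the genes include known targets of Hsf1, the counts of matches are a description of the windows. A run of 3 units, written GAANNTTCNNGAA or on the other strand TTCNNGAANNTTC, lay before HSP78, HSP60 and HSP10, and before 89 of 6000 protein-coding genes (1.48%). AGGGG or its inverse CCCCT lay before HSP78, MDJ1, SSC1 and ECM10, and before 34.1% of the 6000. Neither was found in the windows of MGE1 and PIM1. A pair of units, GAANNTTC or TTCNNGAA, which also occurs inside the longer runs, lay before HSP78, HSP60, HSP10 and PIM1, and before 35.2% of the 6000. Gapped forms, TTCNNGAANNNNNNNGAA or TTCNNNNNNNTTCNNGAA, were found before HSP78 alone of the 8, inside its run, and before 1.40% of the 6000. The stretches for HSP78 (chrIV:974354-974505), HSP60 (chrXII:665185-665227), HSP10 (chrXV:370977-371019) and MDJ1 (chrVI:106562-106623), all read from the minus strand, are shown with the runs of units and AGGGG or CCCCT in capitals.
HSP78: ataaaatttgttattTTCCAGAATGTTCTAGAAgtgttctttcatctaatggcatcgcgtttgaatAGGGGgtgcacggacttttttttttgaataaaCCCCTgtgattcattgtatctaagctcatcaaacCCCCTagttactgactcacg
HSP60: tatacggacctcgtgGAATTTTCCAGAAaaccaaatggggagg
HSP10: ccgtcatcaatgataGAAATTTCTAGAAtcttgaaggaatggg
MDJ1: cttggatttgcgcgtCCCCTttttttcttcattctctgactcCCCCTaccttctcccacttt
In HSP78, 2 overlapping matches made an unbroken run of alternating units from 247 to 230 bases before the start codon. The run ended 198 bases before the start codon in HSP60 and 148 in HSP10. The MDJ1 stretch overlaps another annotated gene, YFL015C. A match of letters does not show that a factor binds there, and ends of transcripts were not analysed here.

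Total expected counts ranged from 11598766 (thiolutin replicate b) to 48045781 (DMSO replicate b). An expected count is the number of reads that the authors' software assigned to a gene. Genes of rRNA took 80.8% to 86.6% of the counts, so that the median protein-coding gene had 132 and 223 counts with DMSO and 73.5 and 29 with thiolutin. The labels do not say whether a and b are separate cultures, so that p-values measure the spread between these libraries. As a check of the arrest, 4 G2/M genes (CLB2, CDC5, SWI5, CDC20) stood at 7.91 to 42.0 TPM with DMSO (a level per length, here set to sum to 1000000 over protein-coding genes) and at 7.31 to 18.8 with thiolutin. The 3 G1 genes CLN2, SIC1 and PCL9 stood at 1.88 to 5.88 with DMSO and at 0.731 to 3.77 with thiolutin. CLB2 and CDC5 fell with thiolutin, and the other 5 were not called.

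Relative to the typical gene, 6 of the 8 genes rose with thiolutin and none fell, in edgeR's quasi-likelihood test at an adjusted p under 0.05. None of the 8 was lower at an unadjusted p under 0.05 either, and DESeq2's Wald test also called 6 higher and 0 lower. Of the 5527 genes tested, 18.5% were called higher and 17.6% lower. The median log2 fold change was 0.80 over the 8 genes and -0.02 over all genes tested, with a range from 0.16 for MGE1 to 4.01 for HSP78. The thiolutin libraries lay above both DMSO libraries for 7 of the 8 genes, and for 33.2% of all genes tested. These values are on the TMM scale, in which the typical gene is placed at no change. Values per S. pombe read follow those of the single genes.

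HSP78 (YDR258C, chromosome IV, 971808 to 974243, minus strand, 1 coding exon) rose most. Its mRNA gave 487 counts (replicate a) and 733 (replicate b) with DMSO, and 4403 (replicate a) and 1905 (replicate b) with thiolutin. Scaled by TMM and written as CPM, counts per 1000000 counts of the library, these were 12.5 and 11.3 with DMSO and 179 and 203 with thiolutin. Both thiolutin libraries thus lay far above both DMSO libraries, and the distance between groups was much wider than that between replicates. The rise was 16.1-fold (95% interval 12.4 to 21.0), or 4.01 on the log2 scale (standard error 0.17, adjusted p = 5.84e-08 in edgeR). By size of rise it was number 17 of the 5527 genes tested. In the quasi-likelihood test it was also the 1 member called at the study's threshold of 1e-05, which 0.796% of all genes passed as higher. This count depends on the test. In edgeR's likelihood ratio test, MDJ1, HSP60 and SSC1 passed 1e-05 too (adjusted p = 3.46e-20, 1.03e-16 and 1.09e-07). The share of all genes that pass in that test was not counted. With 1 library left out in turn, the log2 fold change of HSP78 ranged from 3.90 to 4.10.

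**Figure D1:**
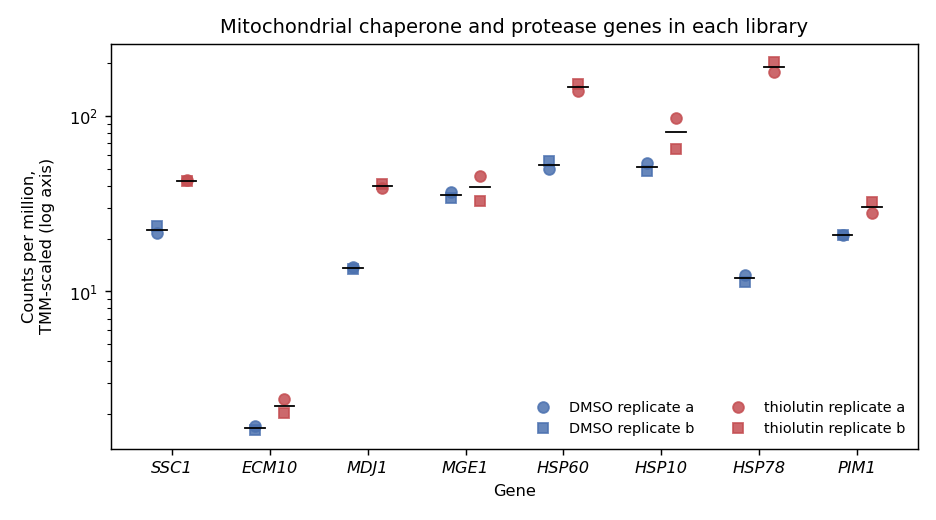
CPM, scaled by TMM, of the 8 genes in each library on a log axis, with circles for replicate a, squares for replicate b and a line at the mean of each group. The HSP78 points move from 12.5 and 11.3 with DMSO to 179 and 203 with thiolutin, and MGE1 is the gene whose groups overlap.

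The Hsp70 machine did not change evenly. MDJ1 (YFL016C, chromosome VI, 104701 to 106236, minus strand), the J-domain partner that delivers substrates and triggers ATP hydrolysis by Ssc1, had 13.8 and 13.5 CPM with DMSO and 38.7 and 41.0 with thiolutin. These groups were far apart relative to their spread. The rise was 2.92-fold (95% interval 2.35 to 3.63), or 1.55 on the log2 scale (standard error 0.14, adjusted p = 2.59e-05 in edgeR). SSC1 itself (YJR045C, chromosome X, 519638 to 521602, minus strand) had 21.5 and 23.5 CPM with DMSO and 43.2 and 42.4 with thiolutin. It rose 1.90-fold (95% interval 1.53 to 2.36), or 0.93 on the log2 scale (standard error 0.14, adjusted p = 0.000738 in edgeR). Both rises were called with each library left out in turn, with log2 fold changes of 1.49 to 1.59 for MDJ1 and 0.87 to 0.99 for SSC1.

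The other 2 genes of the Hsp70 machine did not pass the test. MGE1 (YOR232W, chromosome XV, 774573 to 775259, plus strand), the exchange factor that releases ADP from Ssc1, had 36.9 and 34.2 CPM with DMSO and 45.5 and 33.0 with thiolutin. Thiolutin replicate a lay above the DMSO libraries and replicate b below them. The log2 fold change was 0.16 (95% interval -0.22 to 0.54, adjusted p = 0.505, edgeR), an interval that leaves room for a change of up to 1.45-fold. It was 0.34 and called without thiolutin replicate b (adjusted p = 0.0361, edgeR), and -0.10 without thiolutin replicate a. ECM10 (YEL030W, chromosome V, 94644 to 96578, plus strand), a second Hsp70 of the matrix and a paralog of SSC1, was the least counted of the 8, with 67 and 105 counts with DMSO and 60 and 19 with thiolutin. In CPM it stood at 1.72 and 1.61 with DMSO and 2.44 and 2.02 with thiolutin. The groups did not overlap, but the log2 fold change of 0.46 (95% interval -0.11 to 1.03, adjusted p = 0.188, edgeR) did not pass. The coding sequences of SSC1 and ECM10 were identical at 76.3% of the aligned bases, and their longest identical run was 26 bases. The expected counts of all 8 genes, which are given to 2 decimals, were whole at that precision in every library.

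Both genes of the chaperonin rose, HSP60 by more than HSP10. HSP60 (YLR259C, chromosome XII, 663284 to 665002, minus strand) had 49.8 and 55.4 CPM with DMSO and 140 and 153 with thiolutin. It rose 2.78-fold (95% interval 2.20 to 3.53), or 1.48 on the log2 scale (standard error 0.15, adjusted p = 5.81e-05 in edgeR), and 1.39 to 1.56 with 1 library left out. HSP10 (YOR020C, chromosome XV, 370524 to 370844, minus strand), the gene of the lid, had 54.2 and 48.8 CPM with DMSO and 97.6 and 64.5 with thiolutin. Its groups did not overlap, but the thiolutin libraries were far apart. It rose 1.58-fold (95% interval 1.18 to 2.13), or 0.66 on the log2 scale (standard error 0.19, adjusted p = 0.0208 in edgeR). This call was lost without DMSO replicate a (adjusted p = 0.0944, edgeR), without DMSO replicate b (adjusted p = 0.167, edgeR) and without thiolutin replicate a, where the log2 fold change was 0.33 (adjusted p = 0.0559, edgeR). HSP60 and HSP10 both had a run of 3 units before the start codon, printed above. MDJ1, which rose 2.92-fold, had no exact match to it in its window. A link between these letters and the rises was not tested.

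PIM1 (YBL022C, chromosome II, 177874 to 181275, minus strand), the gene of the Lon protease, had 21.1 and 20.9 CPM with DMSO and 28.2 and 32.2 with thiolutin. The groups did not overlap. The rise was 1.43-fold (95% interval 1.15 to 1.79), or 0.52 on the log2 scale (standard error 0.15, adjusted p = 0.0173 in edgeR). It was no longer called without DMSO replicate a (log2 fold change 0.53, adjusted p = 0.177, edgeR) or without DMSO replicate b (0.52, adjusted p = 0.176, edgeR). The protease thus changed much less than the disaggregase HSP78, whose interval in fold did not overlap that of any other member.

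When libraries were scaled to their S. pombe reads, which the study counted as a spike-in, HSP78 was the 1 gene of the 8 that was called higher. Its log2 fold change was 3.08 (95% interval 2.21 to 3.95, adjusted p = 4.42e-10, edgeR), an 8.46-fold rise. On this scale the median of all genes tested was -1.01, 1.47% of them were called higher and 50.7% lower. MDJ1 stood at 0.61 (95% interval -0.23 to 1.45) and HSP60 at 0.55 (95% interval -0.25 to 1.35), neither of them called. SSC1 stood at -0.02 (95% interval -0.86 to 0.82), at the DMSO level within a wide interval. HSP10, PIM1, ECM10 and MGE1 lay at -0.36, -0.41, -0.60 and -0.86, and 0 of the 8 was called lower, with an adjusted p of 0.0801 for MGE1 (edgeR), whose interval of -1.70 to -0.013 is not adjusted for the number of genes. All 8 genes lay above the median of all genes on either scale. The change of scale moves every gene down by about the shift of the median, so that a value below that shift on the TMM scale falls under 0, as those of 5 of the 8 genes did. One number of S. pombe reads sets the scale of a whole library, and an error in it would shift all 8 genes together.

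**Figure D2:**
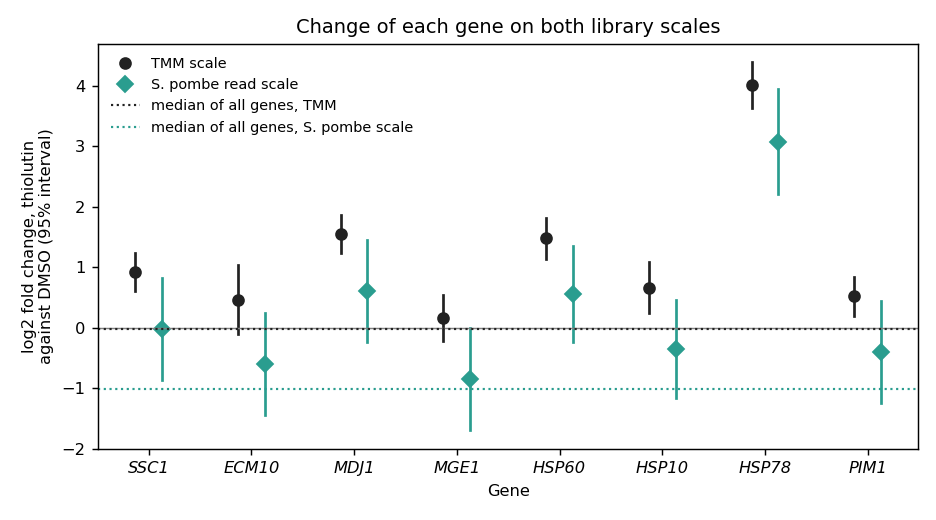
Log2 fold change of each gene, thiolutin against DMSO, with its 95% interval on the TMM scale (black circles) and scaled to S. pombe reads (green diamonds), and dotted lines at the median of all genes on each scale. All 8 genes lie above the median line of their scale, and on the S. pombe scale the HSP78 value of 3.08 is the 1 whose interval lies above 0.

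Levels of different genes can be compared per length, as TPM. In the deposited TPM, HSP10 was first of the 8 in every library, at 42.7 and 35.1 with DMSO and 31.7 and 32.6 with thiolutin. ECM10 was last in every library, at 0.19 and 0.16 with DMSO and 0.11 and 0.14 with thiolutin. With DMSO the order was HSP10, MGE1, HSP60, SSC1, MDJ1, PIM1, HSP78 and ECM10 in both replicates. With thiolutin it was HSP10, HSP60, HSP78, MGE1, MDJ1, SSC1, PIM1 and ECM10 in both. HSP78 thus moved from the seventh to the third place, at 1.07 and 0.87 TPM with DMSO and 6.30 and 11.1 with thiolutin. SSC1 lay above MDJ1 in both DMSO libraries and below it in both thiolutin libraries. In thiolutin replicate a, HSP60, HSP78 and MGE1 lay close together, at 7.06, 6.30 and 6.10 TPM, and these neighbours differed by less than the spread of HSP60 and HSP78 between replicates. Part of that spread is shared by the genes of a library, whose protein-coding share of TPM differed (below), and does not bear on their order. SSC1 and MDJ1 were also neighbours with thiolutin, at 1.89 and 2.89 TPM for SSC1 and 2.19 and 3.61 for MDJ1. The deposited TPM are small numbers because rRNA genes took 92.9% to 94.7% of them. Protein-coding genes took 2.65% and 2.38% with DMSO, and 1.37% in replicate a and 1.86% in replicate b with thiolutin. The deposited TPM thus give the order within a library, and a lower value with thiolutin, as for HSP10, is not a fall relative to other mRNAs. Within the TPM of protein-coding genes alone, the 8 genes together took 0.254% and 0.241% with DMSO and 0.410% and 0.379% with thiolutin.

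**Figure D3:**
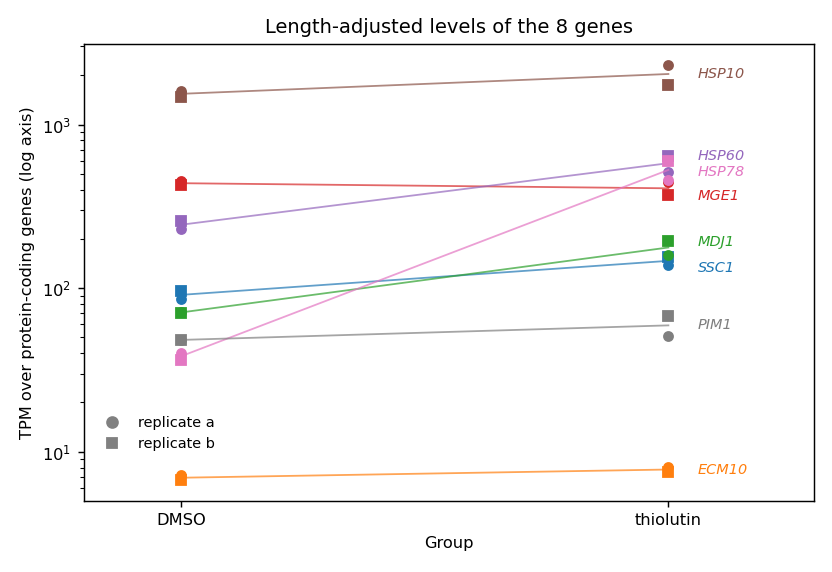
TPM over protein-coding genes of the 8 genes on a log axis, with a circle for replicate a and a square for replicate b of each group, and lines that join the means of the 2 groups. HSP10 is on top and ECM10 at the bottom in every library, and the line of HSP78 crosses those of PIM1, MDJ1, SSC1 and MGE1.

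A ratio of TPM between genes within a library does not depend on how libraries are scaled to each other. The ratio of HSP60 to HSP10 was 0.143 and 0.176 with DMSO and 0.223 and 0.367 with thiolutin. It was higher in both thiolutin libraries, with a wide spread between them. The ratio of SSC1 to its partner MDJ1 went from 1.21 and 1.35 to 0.863 and 0.801, and that of SSC1 to the exchange factor MGE1 from 0.191 and 0.226 to 0.310 and 0.421. The mRNA of the J-domain partner was thus below that of SSC1 with DMSO and above it with thiolutin. SSC1 was 12.1 and 14.2 times as high as its paralog ECM10 with DMSO and 17.2 and 20.6 times with thiolutin. The ratio of HSP78 to HSP60 went from 0.176 and 0.141 to 0.892 and 0.923, the farthest of the 5 ratios. The groups did not overlap for any of the 5 ratios. For each, p was 0.33 in an exact permutation test (two-sided), which cannot go lower with 2 libraries a group.

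**Figure D4:**
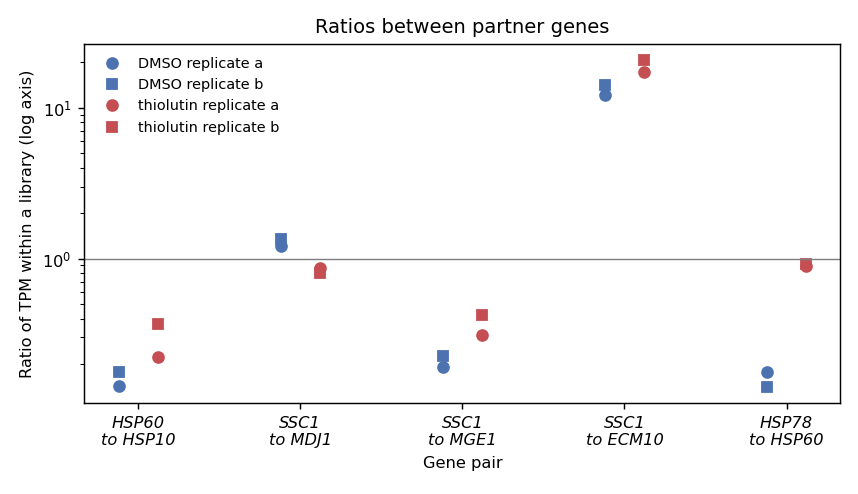
Ratios of TPM between pairs of the genes within each library, on a log axis with a line at equal levels, with circles for replicate a and squares for replicate b. The ratio of HSP78 to HSP60 rises to 0.892 and 0.923 with thiolutin, and that of SSC1 to MDJ1 falls below the line, to 0.863 and 0.801.

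The wider machinery that imports, cleaves and assembles mitochondrial proteins gave calls in both directions. In a list of 54 such genes, 52 passed the filter, and MDJ2 and TOM5 did not. Of the 52, 7 were called higher (13.5%) and 12 lower (23.1%), against 18.5% and 17.6% of all genes tested, and their median log2 fold change was -0.27. On the S. pombe scale 0 were higher and 34 lower (65.4%), where 50.7% of all genes tested were lower. On the TMM scale the calls fell to 2 higher and 7 lower without DMSO replicate a and to 1 higher and 6 lower without DMSO replicate b, and they were 4 and 7 with DESeq2's Wald test.

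The largest rises were in genes of the outer membrane and of the TIM23 channel. TOM71 and TOM70, paired receptors on the outer membrane that bind incoming proteins and cytosolic chaperones, had log2 fold changes of 0.96 (adjusted p = 0.00261, edgeR) and 0.96 (adjusted p = 9.02e-04, edgeR). TOM70 stood at 12.1 and 14.5 CPM with DMSO and at 27.0 and 24.5 with thiolutin. MGR2, a subunit of the TIM23 complex, was at 0.88 (adjusted p = 0.0405, edgeR). Its thiolutin libraries were far apart, at 2.61 and 5.10 CPM (64 and 48 counts), against 1.85 and 2.03 CPM with DMSO. TIM50, the receptor of this complex in the intermembrane space, was at 0.72 (adjusted p = 0.0186, edgeR). In all, 3 of 7 genes of the TOM complex rose and none fell, and 2 of 12 genes of the import motor and TIM23 complex rose and 3 fell. These are small groups, set against 18.5% of all genes called higher and 17.6% lower, and no difference between them was tested.

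Of the genes whose proteins act beside Ssc1 in the import motor, PAM18 and TIM44 fell. PAM18, the J-domain protein that stimulates Ssc1 at the channel, went from 9.18 and 8.13 CPM to 3.18 and 2.98, a log2 fold change of -1.47 (adjusted p = 1.99e-04, edgeR). TIM44, which tethers Ssc1 to the channel, went from 4.92 and 5.38 to 2.08 and 2.23, a log2 fold change of -1.28 (adjusted p = 9.59e-04, edgeR). Both groups were well apart. The J-domain gene of the folding machine, MDJ1, thus rose while that of the import motor, PAM18, fell. PAM16, the partner of PAM18, stood at 0.01 (adjusted p = 0.977, edgeR). ZIM17, which keeps Ssc1 soluble, stood at -0.46 (adjusted p = 0.260, edgeR), and SSQ1, the Hsp70 of iron-sulfur cluster assembly, at 0.28 (adjusted p = 0.219, edgeR).

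Falls were also found among assembly chaperones, carrier import and proteases. TIM12, a small Tim protein of the carrier translocase, fell most, by 1.88 on the log2 scale (adjusted p = 2.97e-04, edgeR), from 210 and 280 counts to 30 and 14. ATP12, an assembly chaperone of the ATP synthase, fell by 1.33 (adjusted p = 4.22e-04, edgeR), and ATP23, a protease with a role in ATP synthase assembly, went from 138 and 219 counts to 32 and 15 (adjusted p = 0.0023, edgeR). Of the 4 assembly chaperones 3 fell (75%), among them TCM62, and of the 10 carrier and intermembrane space genes 3 fell (30%). Of all genes tested, 17.6% were called lower and 18.5% higher. YME1, the protease of the inner membrane that faces the intermembrane space, stood at -0.43 (adjusted p = 0.0550, edgeR). Among the 11 genes of membrane and AAA proteases, 2 rose (18.2%), MGR3 and MCX1, and 2 fell (18.2%), near the shares of all genes. These groups are small, and their difference from all genes was not tested.

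**Figure D5:**
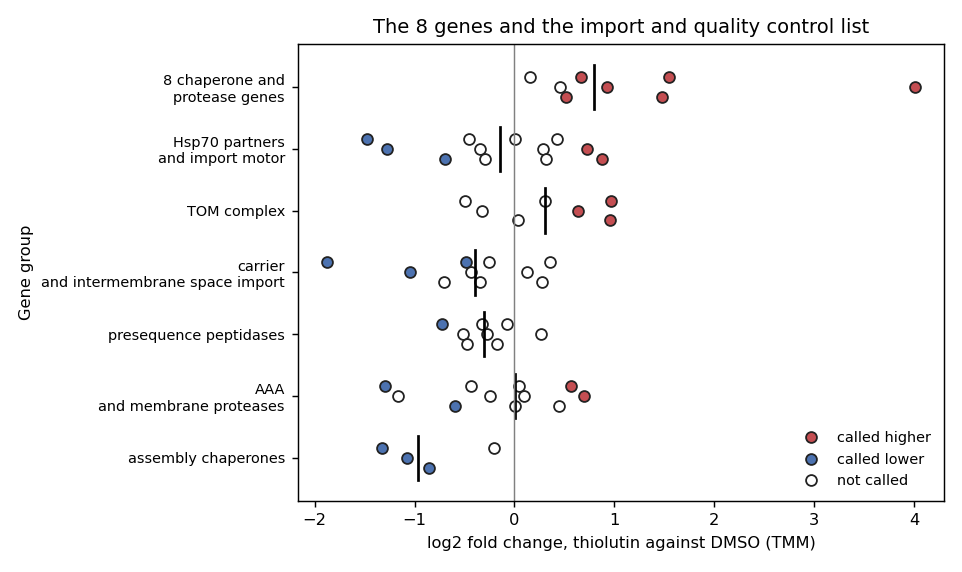
Log2 fold changes, thiolutin against DMSO on the TMM scale, of the 8 genes and of the 52 tested genes of the import and quality control list by group, with filled points for genes called at an adjusted p under 0.05 and a bar at each median. The 8 genes have a median of 0.80 and none below 0, and the assembly chaperones have a median of -0.96.

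Counterparts outside mitochondria, matched by family or role, gave larger values for some of the genes. None was taken for HSP60, HSP10 or PIM1. HSP104, the cytosolic and nuclear relative of HSP78, went from 27.5 and 27.6 CPM to 258 and 289, a 9.94-fold rise, beside the 16.1-fold rise of HSP78. The abundant Hsp70 genes SSA1 and SSA2 had log2 fold changes of 1.39 (adjusted p = 8.67e-05, edgeR) and 1.22 (adjusted p = 2.17e-04, edgeR), beside 0.93 for SSC1, and SSA4 had 5.53. SSA3 stood at 0.49 (adjusted p = 0.0586, edgeR). The J-domain genes YDJ1 and SIS1 had 1.53 and 3.19, beside 1.55 for MDJ1. The exchange factor gene FES1, matched to MGE1 by role, had 3.78, beside 0.16 for MGE1. Of the 8 counterparts, 7 were called higher on the TMM scale, where 18.5% of all genes tested were. Differences of the counterparts from the mitochondrial genes were not tested.

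Log2 CPM were centred on each gene's own mean over the 4 libraries, so that patterns and not levels were compared with HSP60. The 3 nearest protein-coding genes were WTM1, SSA1 and HOM2, at Euclidean distances of 0.028, 0.10 and 0.12. The change on the log2 scale was 1.49 for WTM1 (standard error 0.15) and 1.57 for HOM2 (standard error 0.16), the gene of an enzyme of threonine and methionine synthesis. With 4 libraries, this measure of likeness rests on few points.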

How the data were processed

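Total RNA depleted of large rRNA was sequenced in 4 libraries. Per the labels and the methods, the authors aligned reads (single-end, stranded) with STAR 2.7.3a, on sacCer3 among the builds of the submitters' processing notes, and ran RSEM 1.3.1. They deposited expected counts, without normalization, and TPM values, adjusted for length and set to the same sum in each library before any spike-in factor. The S. pombe reads were counted by the authors with Bowtie 1.2.2. The lengths of all 8 genes equalled those in R64, the RefSeq assembly that supplied names (6006 identifiers matched), coordinates and sequences.

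Expected counts were rounded to whole numbers, filtered with filterByExpr, scaled by TMM and entered into the quasi-likelihood test of edgeR 4.0.16 in R 4.3.3, with Benjamini-Hochberg adjustment over 5527 genes. The test used the 2 groups only. Standard errors divide the log2 fold change by √F, and 95% intervals use the degrees of freedom of the test. The S. pombe scale sets library sizes to the S. pombe reads. Alternatives used DESeq2 1.42.0, and limma 3.58.1 on log2(TPM + 0.1) and log2(TPM + 0.01). The fits were tested on simulated data.

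The 8 genes and all lists were chosen with earlier results of these data known. Named in the text are the 8 genes, the 8 counterparts outside mitochondria and the 3 genes nearest to HSP60. Of the import list, the 4 largest called rises and falls with groups that do not overlap are named, and SSQ1, ZIM17, TIM44 and YME1. PAM16, TCM62, MGR3, MCX1 and the 2 genes removed by the filter were added after their values were seen. Replicates differed beyond sampling noise (without rRNA genes, chi-square was 6.54 per degree of freedom in DMSO and 12.1 in thiolutin). The precision of a gene is limited by its counts. FPKM values were not used here.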

Additional observations from a re-analysis of the deposited data

How the results depend on the processing

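With S. pombe reads as library sizes 1 of the 8 genes was higher in place of 6, and the values were -0.021 for SSC1, -0.60 for ECM10, -0.86 for MGE1, -0.36 for HSP10 and -0.41 for PIM1. With limma on log2(TPM + 0.1) and log2(TPM + 0.01), which change the scale and the test together, 1 of 8 was higher under each, HSP78. There the values were -0.29 and -0.46 for ECM10, -0.76 and -0.77 for MGE1, -0.27 and -0.27 for HSP10 and -0.34 and -0.37 for PIM1. Over all genes, where 1023 were higher and 971 lower, S. pombe reads gave 81 and 2804 and the Wald test 563 lower. For the import list, where 7 were higher and 12 lower, they gave 0 and 34, and 4 and 7. With 1 library left out, 4 to 7 of the 8 genes were higher and 0 lower, 368 to 1259 of all genes were higher and 442 to 1219 lower, and 1 to 7 of the list were higher and 6 to 15 lower. MGE1 ranged from -0.10 to 0.34. These fits assume that the lone library varies like the other group. The other 7 settings (size factors, tests, filters, rRNA genes left out, replicate block) changed the call of none of the 8 genes. With the replicate block 6 of the 8 were higher. The a minus b differences in DMSO and in thiolutin had a correlation of 0.0269 across genes. This shows no shared effect of the letters, but with 2 libraries a group it cannot tell whether they pair the libraries. TPM over protein-coding genes was added after the data were seen. The depth limits ECM10 most, with 19 counts in thiolutin replicate b.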
